A study of Mus musculus with 55 samples.

Results

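The gene set described here holds 34 genes of the integrated stress response and of serine and one-carbon metabolism. Its members were chosen by name from a list of known targets and partners of the transcription factor ATF4. Earlier results of these data were known at the choice, so shares of members called are no independent test. All 34 members were found among the 31933 Ensembl genes of the 3 deposited count tables. They fall into 7 roles, namely transcription factors and coregulators, stress effectors, serine and mitochondrial one-carbon enzymes, other amino acid enzymes, amino acid transporters, aminoacyl-tRNA synthetases and secreted factors.

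In the integrated stress response, kinases that sense amino acid shortage, endoplasmic reticulum stress, haem shortage or double-stranded RNA phosphorylate the initiation factor eIF2alpha. General translation then slows, while translation of Atf4 mRNA rises, so that ATF4 protein is largely set after transcription. ATF4, often paired with C/EBP family proteins or CHOP, switches on genes that take up and make amino acids, charge tRNAs and supply one-carbon units, and mitochondrial stress in fat and muscle is known to raise the secreted members Gdf15 and Fgf21 through it. Corticosterone is the main glucocorticoid of mice, and housing in the cold raises heat production in brown fat.

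The libraries came from male C57BL/6NRj mice, 10 weeks old, whose drinking water held corticosterone (GC) or placebo (Ctrl). Treatment ran over 4 weeks, with housing at 22 °C (RT) or 13 °C (CT). The 55 libraries were made from laser-captured areas of 3 depots, amplified as full-length cDNA: the brown fat between the shoulder blades (iBAT, 18 libraries), the white fat around the gonads (goWAT, 19) and the white fat under the skin (scWAT, 18). Groups held 5 libraries, except for iBAT Ctrl RT with 3, goWAT Ctrl RT and scWAT Ctrl RT with 4 each, and scWAT GC CT with 4, numbered 1, 3, 4 and 5. No label names the animal behind a library, so the tests measure the spread between libraries, and whether depots share mice is not stated. In captured bulk tissue, fewer cells of a type and less RNA per cell cannot be told apart.

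Values are CPM, the field's unit for read counts brought to 1 common library size, here scaled within each depot. Summed CPM of markers use 1 scaling over the 55 libraries instead. A gene was called when edgeR's quasi-likelihood test gave a Benjamini-Hochberg adjusted p under 0.05 over all genes of a fit; each adjusted p below comes from it, and errors of log2 fold changes are standard errors. Total counts per library ran from 14043773 to 35790654 in iBAT, from 12310822 to 53121372 in goWAT and from 8622178 to 56450653 in scWAT. All 34 members passed the filter on low counts in both white depots and 33 in iBAT, where Slc7a5, a large neutral amino acid transporter, was too low. Fkbp5, a glucocorticoid receptor target given as a check of the treatment, had mean CPM of 171 with corticosterone and 43.3 with placebo in goWAT at 22 °C, and it rose (log2 fold change 1.98 ± 0.38, adjusted p = 0.00301). The Fkbp5 differences at 22 °C in iBAT (1.66 ± 0.56, adjusted p = 0.209) and scWAT (1.77 ± 0.58, adjusted p = 0.0735) did not pass, and at 13 °C the difference was 0.47 for iBAT, -0.23 for goWAT and -0.21 for scWAT.

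The iBAT label matched its markers: the summed CPM of 10 brown adipocyte markers was 7178 to 44202 in iBAT. The sum was 90.9 to 2140 in goWAT, and scWAT libraries had 151 to 3779, so it does not tell the white depots apart. Several libraries stood apart on markers of other cells. In iBAT, 6 libraries (Ctrl RT 1 and 2, GC RT 4, Ctrl CT 1 and 4, GC CT 2) had 1096 to 3616 CPM over 8 white adipocyte markers, a list added after the data were seen, against 113 to 474 in the other 12. Skeletal muscle markers reached 444 to 1294 CPM in iBAT Ctrl RT 3, Ctrl CT 4 and GC CT 4, against 1.63 to 221 in the other iBAT libraries, and macrophage markers 7715 CPM in iBAT GC RT 5. In goWAT, epididymis markers reached 464 to 3164 CPM in GC RT 5 and Ctrl CT 1 and 4, white adipocyte markers 21524 to 26377 CPM in GC RT 2 and 4, and brown adipocyte markers 1422 to 2140 CPM in GC RT 1 and GC CT 1. Epithelium markers ran up to 355 CPM in goWAT Ctrl CT and 162 CPM in GC CT, with a depot median of 19.7 CPM. No set of goWAT libraries was left out by epithelium markers. In scWAT, macrophage markers reached 10703 to 15531 CPM in GC RT 2 and 3, skeletal muscle markers 2616 CPM in GC RT 2 and 557 CPM in Ctrl RT 1, and epithelium markers 77.4 to 355 CPM in Ctrl CT 3 and GC CT 3, 4 and 5. Calls lost without sets of these libraries are given with the results, and the part of these cells in them was not tested. The scWAT Ctrl RT 1 and iBAT GC RT 5 libraries were left out singly.

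Corticosterone against placebo was tested at each temperature in each depot. Of the 34 members, 11 were called in at least 1 of the 6 comparisons, with 13 calls higher and 2 lower. The share of all genes called in at least 1 of the 6 was not counted, so these totals cannot be set against it. Shares for each comparison follow. In goWAT at 22 °C, 4 members rose and none fell (11.8% of members, beside 5.98% of all genes called, 3.13% higher and 2.85% lower). At 13 °C in the same depot 2 rose and none fell (5.88%, beside 1.45% of all genes, 0.848% higher and 0.6% lower). For scWAT, 3 rose and none fell at 22 °C (8.82%, beside 6.93%, 3.48% higher and 3.45% lower), and 4 rose and 1 fell at 13 °C (14.7%, beside 2.59%, 1.45% higher and 1.14% lower). In iBAT, 1 member fell at 13 °C (3.03%, beside 0.728%, 0.32% higher and 0.408% lower). None was called there at 22 °C, where 0.664% of all genes were. In that comparison 10 members had an unadjusted p under 0.05 and DESeq2 called 1. Counts at an unadjusted p, by DESeq2 and in alternative runs, here and below, stand without the share of all genes. They cannot be read as results about the members. The median log2 fold change over the members ran from 0.03 in scWAT at 13 °C to 0.36 in scWAT at 22 °C, and over all genes tested from 0.0054 to 0.062.

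**Figure D1:**
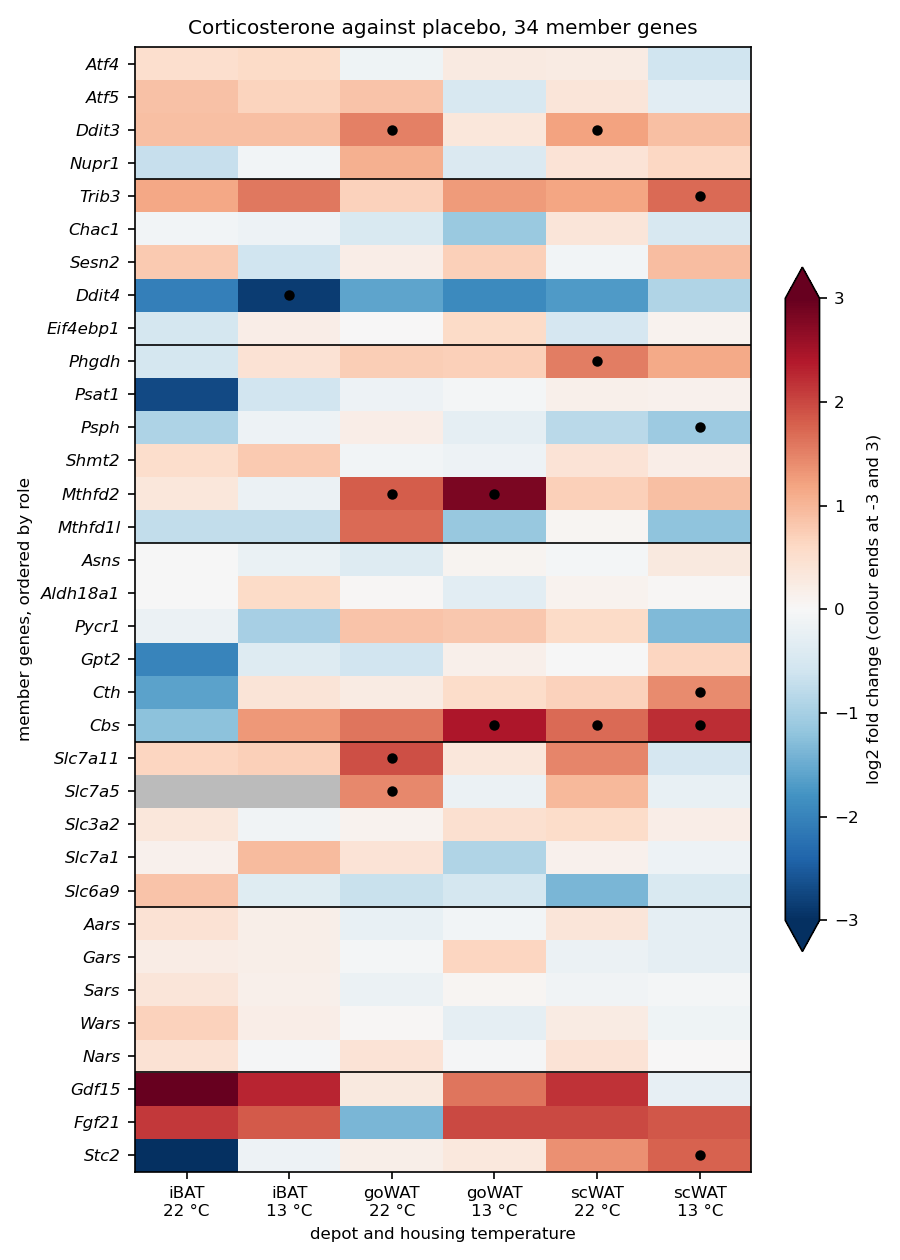
Colour gives the log2 fold change of corticosterone against placebo for each of the 34 members (rows, ordered by role and divided by lines) in 3 depots at 2 temperatures (columns); black dots mark the 15 calls at adjusted p under 0.05 and grey marks Slc7a5, not tested in iBAT. Ddit3 and Trib3 were positive and Ddit4 negative in all 6 columns, and the dots lie mostly in the white depots.

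**Figure D2:**
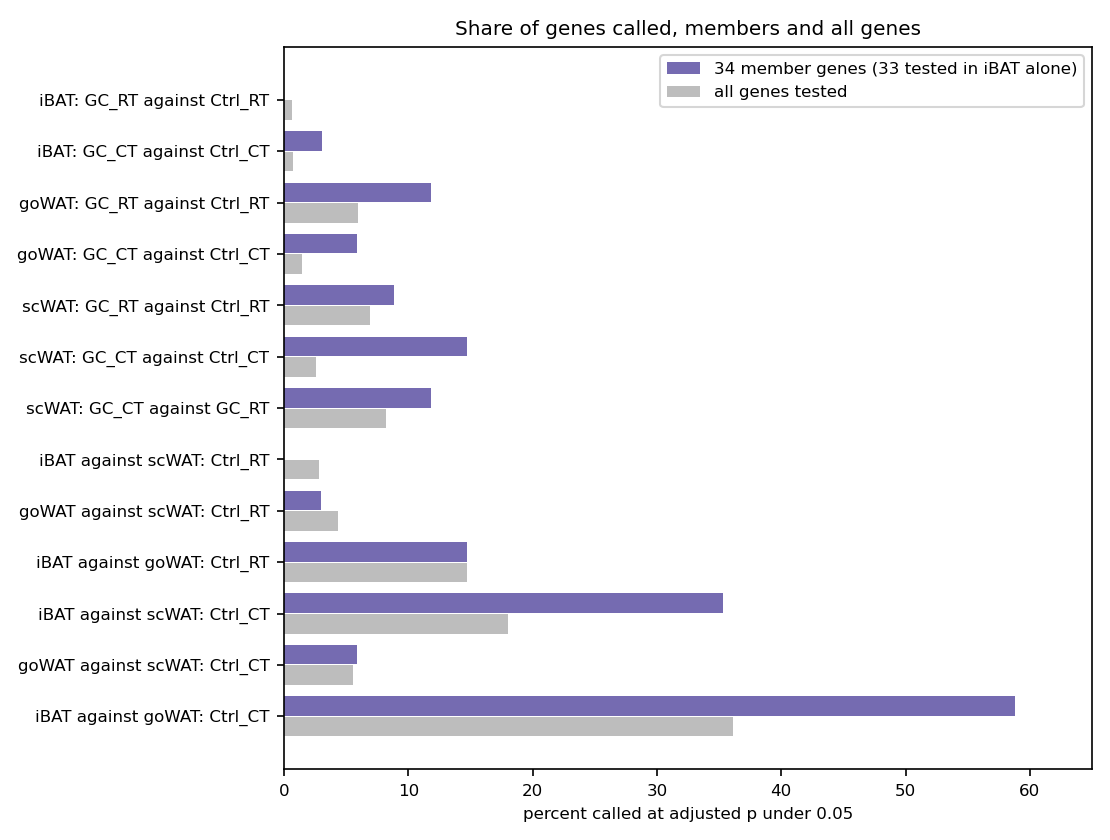
Bars give the percent of genes called at adjusted p under 0.05 among the 34 members (33 in the iBAT fit) and among all genes tested, for corticosterone in each depot and temperature, cold under corticosterone in scWAT, and depot against depot in placebo. The member share reached 14.7% in scWAT at 13 °C with corticosterone and 58.8% between iBAT and goWAT in placebo at 13 °C, where the share of all genes was 36.1%.

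Promoter windows of 300 bases around the RefSeq start were at hand for 29 of the 34 members. The letters TGATGNAA, the core of the C/EBP-ATF response element that ATF4 is known to bind, stood on either strand in 9 of the 29 windows (31.0%) and in 1219 of 27025 windows of all genes (4.51%). The 9 were Chac1, Trib3, Slc7a11, Asns, Gars, Fgf21, Nupr1, Aars and Pycr1, and of these Trib3 and Slc7a11 were called with corticosterone. The consensus of the glucocorticoid response element stood in 0 of the 29 windows and in 0.537% of all. A match is a stretch of letters and not a site shown to be bound. The members were taken from known targets and partners of ATF4, so their higher share of matches is no separate finding.

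The 200 bases before the start are shown for Cbs, Mthfd2, Ddit3 and Ddit4, the members with a window that had the most corticosterone calls, then the smallest adjusted p, and for Slc7a11, added after the matches were seen because it holds 2. They were taken from RefSeq (GRCm38.p6) and run 5′ to 3′ on the gene's strand; capitals mark TGATGNAA or its reverse complement. The Cbs window is chr17:31637206-31637405 (minus strand), that of Mthfd2 chr6:83317605-83317804 (minus), Ddit3 chr10:127290593-127290792 (plus), Ddit4 chr10:59951771-59951970 (minus) and Slc7a11 chr3:50443614-50443813 (minus). In Slc7a11 the matches begin 66 and 47 bases before the start, on opposite strands, and the other 4 windows have no capitals.
Cbs: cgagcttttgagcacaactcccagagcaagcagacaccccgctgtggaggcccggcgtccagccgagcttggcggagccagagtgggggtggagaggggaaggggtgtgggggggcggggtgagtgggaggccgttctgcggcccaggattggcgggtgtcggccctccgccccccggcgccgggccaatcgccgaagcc
Mthfd2: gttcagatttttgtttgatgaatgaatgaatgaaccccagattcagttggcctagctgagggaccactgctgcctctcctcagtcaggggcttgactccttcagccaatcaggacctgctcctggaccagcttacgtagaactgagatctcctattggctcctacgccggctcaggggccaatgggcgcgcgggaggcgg
Ddit3: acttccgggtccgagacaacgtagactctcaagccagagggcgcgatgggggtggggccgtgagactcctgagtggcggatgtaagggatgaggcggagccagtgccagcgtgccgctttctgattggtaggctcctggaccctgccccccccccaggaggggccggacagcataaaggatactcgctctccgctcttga
Ddit4: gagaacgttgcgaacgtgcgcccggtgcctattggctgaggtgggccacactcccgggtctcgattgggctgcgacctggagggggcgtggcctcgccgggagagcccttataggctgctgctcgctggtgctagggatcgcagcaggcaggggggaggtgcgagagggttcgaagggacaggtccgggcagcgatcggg
Slc7a11: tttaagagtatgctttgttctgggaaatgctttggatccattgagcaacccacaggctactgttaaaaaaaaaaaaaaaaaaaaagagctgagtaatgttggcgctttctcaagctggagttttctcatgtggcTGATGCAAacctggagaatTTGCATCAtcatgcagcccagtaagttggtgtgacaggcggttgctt

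Among the transcription factors, Ddit3, which encodes the stress factor CHOP, rose with corticosterone at 22 °C in both white depots, while Atf4 itself was called in no corticosterone comparison. In goWAT, Ddit3 had 9.44, 6.57, 6.97 and 4.95 CPM in placebo libraries 1 to 4 and 9.81, 17.8, 13.4, 36.8 and 21.9 CPM in corticosterone libraries 1 to 5. No placebo library reached the lowest corticosterone library, GC RT 1, though Ctrl RT 1 lay just under it. The log2 fold change was 1.51 ± 0.33 (adjusted p = 0.00754), and without GC RT 2 and 4, the libraries rich in white adipocyte markers, the adjusted p was 0.0602. In scWAT, Ddit3 had 6.45, 7.8, 7.44 and 10.8 CPM in placebo and 13, 19.4, 19, 27.1 and 15 CPM with corticosterone, again with no overlap. The log2 fold change there was 1.20 ± 0.27 (adjusted p = 0.00932), and the call held when each of the 18 libraries was left out in turn.

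The other Ddit3 differences with corticosterone were 0.91 ± 0.35 in iBAT at 22 °C, 0.90 ± 0.29 in iBAT at 13 °C, 0.34 ± 0.30 in goWAT at 13 °C and 0.90 ± 0.26 in scWAT at 13 °C, none past the threshold. Ddit3 lies at chr10:127290774-127296288 on the plus strand of GRCm38 (GENCODE M21) and overlaps Mars on the other strand. Full-length libraries of this kind mark no strand, so reads in the shared stretch cannot be assigned. Other members also overlap a named gene on the opposite strand, with the same limit. Among them are Atf5 (Nup62 and Il4i1), Shmt2 (Ndufa4l2), Slc6a9 (Ccdc24 and B4galt2) and Wars (Wdr25). Atf4, whose mRNA is translated when eIF2alpha is phosphorylated, had log2 fold changes between -0.60 and 0.58. In iBAT at 13 °C, Atf4 had 65.5, 80.8, 53.9, 84.7 and 89.2 CPM in placebo and 122, 106, 116, 115 and 101 CPM with corticosterone. The 2 groups did not overlap, but the difference of 0.58 ± 0.21 did not pass (adjusted p = 0.284). Atf5, a related factor of the mitochondrial stress response, ranged from -0.49 to 0.88 over the 6 comparisons, and Nupr1, a small stress-induced coregulator, from -0.69 to 1.07.

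Trib3 and Ddit4 stood out among the stress effectors, in opposite directions. Trib3, a pseudokinase that is induced by ATF4 and CHOP and restrains them in return, rose with corticosterone in scWAT at 13 °C. It had 6.19, 5.94, 7.71, 8.05 and 3.12 CPM in placebo and 9.55, 23.8, 16.9 and 31.1 CPM with corticosterone. Each corticosterone library was above the highest placebo library, and the log2 fold change was 1.70 ± 0.39 (adjusted p = 0.0184). The Trib3 call was lost without GC CT 3 or GC CT 5 (highest adjusted p = 0.0735). In the 5 other comparisons, Trib3 was higher by 0.70 to 1.59, in none of them past the threshold, and in iBAT at 13 °C GC CT 1 was the lone library with 0 counts.

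Ddit4, which encodes REDD1, an inhibitor of mTORC1 known to be induced by glucocorticoids in other tissues, had negative log2 fold changes in all 6 corticosterone comparisons. In iBAT at 13 °C, Ddit4 had 9.84, 13.4, 23.8, 19.3 and 34.9 CPM in placebo and 8.17, 2.03, 0.965, 1.49 and 1.79 CPM with corticosterone. All 5 corticosterone libraries were below all placebo libraries, and GC CT 1, at 8.17 CPM, lay closest to placebo. The means were 20.3 and 2.89 CPM, the log2 fold change was -2.84 ± 0.56 (adjusted p = 0.0140), and Ddit4 was the 1 member that fell in iBAT. Its adjusted p was 0.0537 without GC CT 5, 0.124 without the 6 libraries rich in white adipocyte markers and 0.100 without the 3 rich in muscle markers.

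In iBAT at 22 °C, Ddit4 had 15, 15.4 and 14.6 CPM in placebo against 2.88, 8.16, 3.25, 2.6 and 1.02 CPM with corticosterone. The groups did not overlap there either, though the difference of -2.06 ± 0.58 did not pass (adjusted p = 0.114). In goWAT, Ddit4 differed by -1.58 ± 0.63 at 22 °C and -1.91 ± 0.60 at 13 °C (adjusted p = 0.141 and 0.117), and in scWAT by -1.70 ± 0.59 at 22 °C (adjusted p = 0.0891). The other effectors were not called with corticosterone. Sesn2, a leucine sensor that acts on mTORC1, ranged from -0.59 to 0.93, Chac1, a glutathione-degrading enzyme, from -1.12 to 0.35, and Eif4ebp1, a translation repressor, from -0.53 to 0.58.

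**Figure D3:**
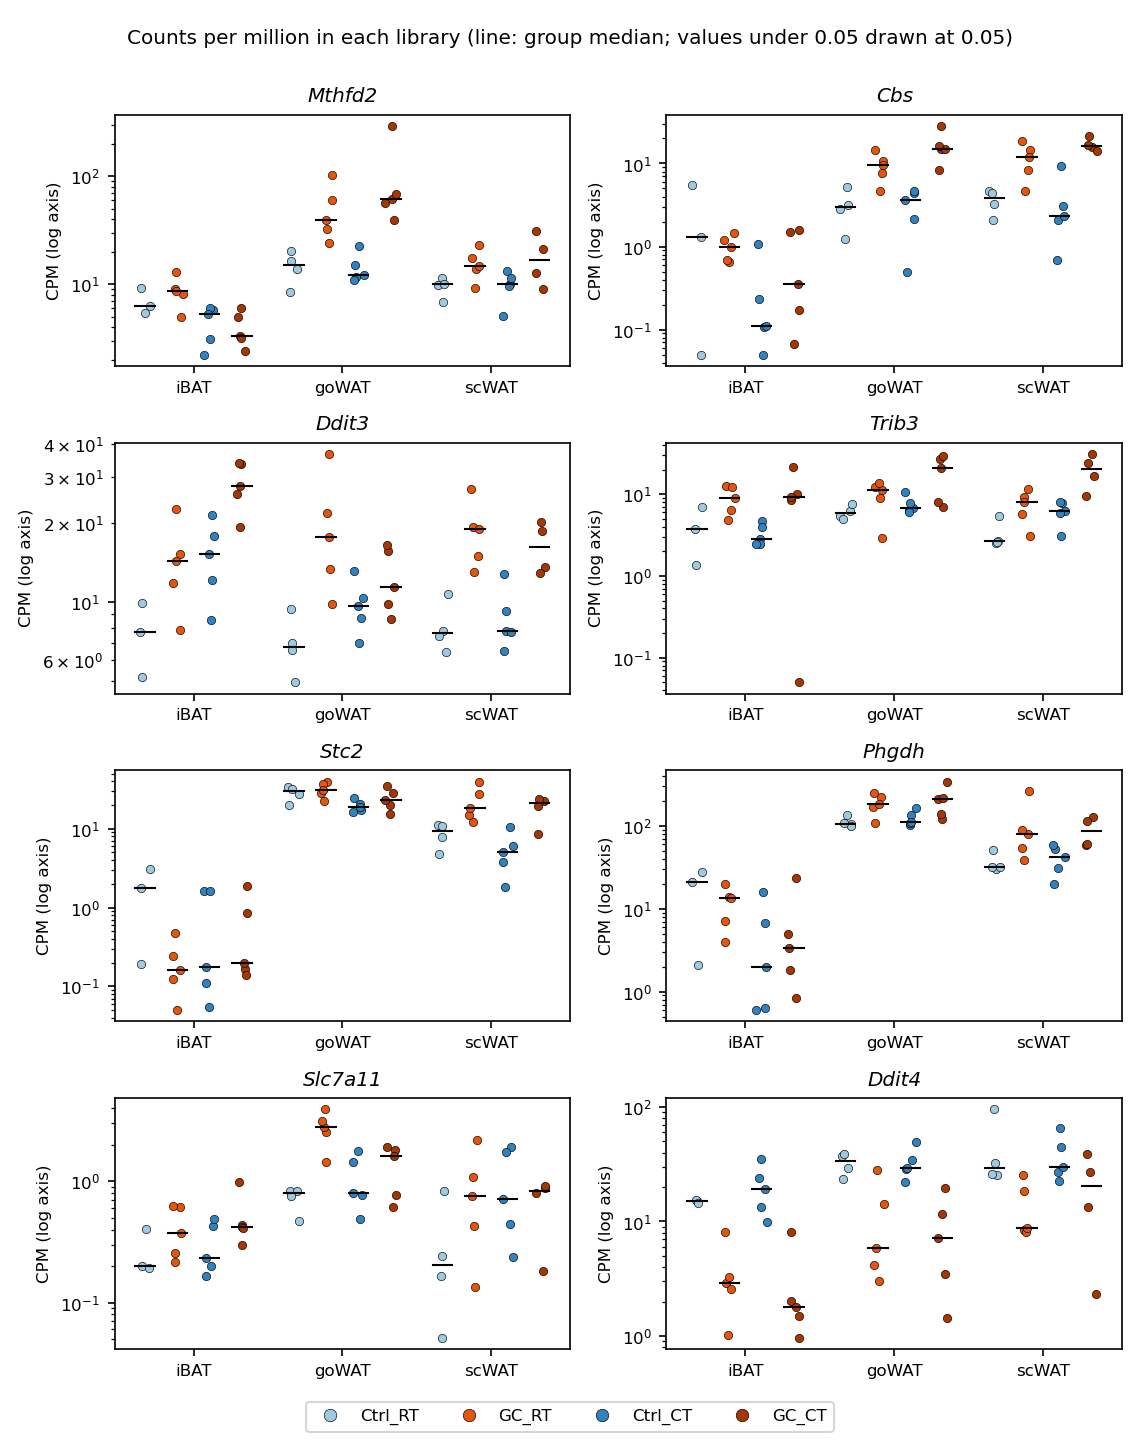
Points give the CPM (log axis) of 8 members in each of the 55 libraries, by depot and group; lines are group medians and values under 0.05 are drawn at 0.05. Mthfd2 and Cbs are higher with corticosterone in goWAT, Cbs and Ddit3 in scWAT at 22 °C, and Ddit4 is lower with corticosterone in iBAT.

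Of the serine and one-carbon enzymes, Mthfd2 rose in goWAT at both temperatures. It encodes the mitochondrial methylenetetrahydrofolate dehydrogenase that turns serine-derived one-carbon units towards formate. In goWAT at 13 °C, Mthfd2 had 11.7, 15, 12.3, 22.9 and 11.1 CPM in placebo and 61.1, 39.4, 292, 69.1 and 57.3 CPM with corticosterone. Again no library of one group reached the other, and GC CT 3, at 292 CPM, was far above the other 4. The log2 fold change was 2.83 ± 0.51 (adjusted p = 0.00645), and it was called in each of the 19 fits that left out 1 library.

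Mthfd2 at 22 °C in goWAT had 8.59, 16.4, 13.8 and 20.4 CPM in placebo and 39.7, 61, 103, 24.4 and 32.3 CPM with corticosterone, with no overlap. The log2 fold change was 1.82 ± 0.53 (adjusted p = 0.0470). This Mthfd2 call was lost without any 1 of the 4 placebo libraries, GC RT 2 or 3, Ctrl CT 1, 2, 3 or 5, or GC CT 4 (highest adjusted p = 0.122), with no low-count filter (0.0930), without GC RT 2 and 4 together (0.0743) and without the libraries rich in epididymis markers (0.0512). In scWAT, Mthfd2 differed by 0.90 ± 0.34 at 13 °C (adjusted p = 0.177), and in iBAT its CPM stayed between 2.24 and 13.1. The corticosterone effect on Mthfd2 differed between depots at 13 °C (edgeR's quasi-likelihood F-test over the 55 libraries, adjusted p = 0.0221, beside 0.234% of all genes called). Its log2 effect was 1.89 higher in goWAT and 1.04 lower in iBAT than in scWAT. The adjusted p was 0.102 without goWAT GC CT 3 and 0.0721 without the goWAT and scWAT libraries rich in other markers.

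Phgdh, the first enzyme of serine synthesis from glycolysis, rose with corticosterone in scWAT at 22 °C. It had 29.8, 32, 50.9 and 31.9 CPM in placebo and 261, 79.9, 54, 89.4 and 38.6 CPM with corticosterone. The groups overlapped, since GC RT 5 lay below Ctrl RT 3, and GC RT 1 was far above the rest. The log2 fold change was 1.53 ± 0.45 (adjusted p = 0.0451), and this Phgdh call was kept in 7 of 18 fits that left out 1 library. It was lost without any 1 of the 4 Ctrl RT libraries, GC RT 1, Ctrl CT 1, 2 or 4, or GC CT 1, 3 or 4 (highest adjusted p = 0.133), and without the libraries rich in epithelium markers (0.0876), with the replicate number as a block (0.0665), with only these 2 groups fitted (0.108) and with no low-count filter (0.0578). In goWAT, Phgdh was higher with corticosterone by 0.73 ± 0.28 at 22 °C and 0.72 ± 0.26 at 13 °C, neither past the threshold.

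Psph, which makes serine from phosphoserine in the last step of the pathway, fell in scWAT at 13 °C. It had 55, 65.1, 54.4, 38.6 and 47.4 CPM in placebo and 27.8, 29.2, 20.1 and 21.5 CPM with corticosterone. Every corticosterone library was below every placebo library, and the log2 fold change was -1.08 ± 0.27 (adjusted p = 0.0316), lost without Ctrl CT 1, 2 or 3 or any of the 4 GC CT libraries (highest adjusted p = 0.124). Psph overlaps Cct6a on the opposite strand, so part of its counts cannot be assigned. The first enzyme of the pathway had the opposite sign in scWAT at 13 °C, where Phgdh differed by 1.13 ± 0.43 without passing (adjusted p = 0.189). Psat1, the enzyme between them, had log2 fold changes from -0.16 to 0.14 in the 4 white depot comparisons and -2.72 ± 1.07 in iBAT at 22 °C (adjusted p = 0.325). Shmt2, the mitochondrial serine hydroxymethyltransferase, ranged from -0.15 to 0.77, and Mthfd1l, which releases formate in mitochondria, from -1.21 to 1.69, with no call.

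Cbs gave the most corticosterone calls of any member, 3 of 6. It encodes cystathionine beta-synthase, which joins serine and homocysteine in the first step of transsulfuration, the route to cysteine. In goWAT at 13 °C, Cbs had 2.16, 0.488, 4.35, 3.6 and 4.72 CPM in placebo and 8.36, 14.7, 28.1, 15.1 and 16.2 CPM with corticosterone. The groups did not overlap, and the log2 fold change was 2.43 ± 0.48 (adjusted p = 0.0108), with a call in each of the 19 fits that left out 1 library and an adjusted p of 0.0987 without the libraries rich in epididymis markers.

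In scWAT at 13 °C, Cbs had 2.1, 2.32, 9.41, 3.09 and 0.693 CPM in placebo and 15.8, 16.6, 14 and 21.5 CPM with corticosterone. All 4 corticosterone libraries lay above Ctrl CT 3, the highest placebo library, and the log2 fold change was 2.23 ± 0.49 (adjusted p = 0.0155). Cbs at 22 °C in scWAT had 2.1, 4.65, 4.45 and 3.21 CPM in placebo and 18.8, 8.29, 4.72, 14.7 and 11.9 CPM with corticosterone. GC RT 3, at 4.72 CPM, barely cleared placebo, and the log2 fold change of 1.69 ± 0.51 (adjusted p = 0.0483) was kept in 5 of 18 fits that left out 1 library. It was lost without any Ctrl RT library, GC RT 1, 4 or 5, Ctrl CT 1, 2 or 4, or GC CT 1, 3 or 4 (highest adjusted p = 0.132), and with the replicate number as a block (0.0783). In goWAT at 22 °C, Cbs was higher by 1.61 ± 0.50 without passing (adjusted p = 0.0582). In iBAT, Cbs had 5.58 CPM in Ctrl RT 1 and 0 to 1.59 CPM in every other library.

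Cth, the next enzyme of the same route, rose in scWAT at 13 °C. It had 8.54, 7.64, 10.3, 8.71 and 3.7 CPM in placebo and 24.5, 24.6, 12.9 and 21.9 CPM with corticosterone, with no overlap. The log2 fold change was 1.42 ± 0.32 (adjusted p = 0.0180), lost without GC CT 1 or GC CT 3 (highest adjusted p = 0.0557). Other amino acid enzymes were not called with corticosterone. Asns, asparagine synthetase and a classical ATF4 target, ranged from -0.39 to 0.29, Aldh18a1, which starts proline synthesis, from -0.31 to 0.58, Pycr1, which ends it, from -1.32 to 0.85, and Gpt2, the mitochondrial alanine aminotransferase, from -1.99 to 0.65.

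Of the amino acid transporters, Slc7a11 and Slc7a5 rose in goWAT at 22 °C. Slc7a11 encodes xCT, the cystine importer, and its promoter window holds 2 of the ATF4 element matches shown above. It had 0.83, 0.829, 0.757 and 0.469 CPM in placebo and 2.55, 2.8, 3.12, 1.44 and 3.91 CPM with corticosterone. Each corticosterone library was above each placebo library, and the log2 fold change was 1.94 ± 0.49 (adjusted p = 0.0198), lost without Ctrl RT 3 or 4 (highest adjusted p = 0.0872).

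Slc7a5 had 2.11, 1.1, 2.45 and 0.831 CPM in placebo and 3.12, 4.58, 4.23, 5.98 and 4.2 CPM with corticosterone in goWAT at 22 °C. The groups did not overlap, and the log2 fold change was 1.44 ± 0.40 (adjusted p = 0.0325). This Slc7a5 call was lost without Ctrl RT 2 or 4 or GC RT 2 or 4 (highest adjusted p = 0.131), without the libraries rich in white adipocyte (0.120) or epididymis markers (0.0549), with only these 2 groups fitted (0.0920) and with no low-count filter (0.0697). In goWAT at 13 °C, the differences were 0.35 for Slc7a11 and -0.17 for Slc7a5. Slc3a2, the shared heavy chain of both, ranged from -0.11 to 0.55, Slc7a1, an arginine and lysine carrier, from -0.89 to 0.95, and Slc6a9, a glycine transporter, from -1.36 to 0.87.

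None of the 5 aminoacyl-tRNA synthetases was called with corticosterone in any depot. Their log2 fold changes lay from -0.28 to 0.44 for Aars, -0.27 to 0.64 for Gars, -0.17 to 0.35 for Sars, -0.27 to 0.69 for Wars and -0.04 to 0.42 for Nars. The median over the 30 values of this role was 0.04. For iBAT at 22 °C all 5 values were positive, from 0.23 to 0.69, with a smallest adjusted p of 0.372.

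Of the secreted factors, Stc2, a stanniocalcin that inhibits the protease PAPP-A and so restrains growth factor release, rose in scWAT at 13 °C. It had 5.09, 5.97, 10.4, 1.83 and 3.81 CPM in placebo and 19.5, 8.53, 22.6 and 23.8 CPM with corticosterone. The groups overlapped, since GC CT 3 lay below Ctrl CT 3, and the log2 fold change was 1.76 ± 0.43 (adjusted p = 0.0278). The Stc2 call was lost without Ctrl CT 1, 2, 4 or 5 or GC CT 1, 4 or 5 (highest adjusted p = 0.0887). In scWAT at 22 °C, Stc2 was higher by 1.37 ± 0.44 (adjusted p = 0.0634).

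In iBAT at 22 °C, Stc2 had 1.77, 3.04 and 0.192 CPM in placebo and 0, 0.123, 0.16, 0.473 and 0.243 CPM with corticosterone, a difference of -3.05 ± 1.13 that did not pass (adjusted p = 0.273). The corticosterone effect on Stc2 differed between the 3 depots at 22 °C (edgeR's quasi-likelihood F-test, adjusted p = 0.0241, beside 0.742% of all genes called). The log2 effect was 4.48 lower in iBAT and 1.27 lower in goWAT than in scWAT. Without the iBAT libraries rich in white adipocyte markers, among them both high placebo libraries, the adjusted p for Stc2 was 0.347. The difference was also lost without iBAT Ctrl RT 1 or 2 or GC RT 1 or 2 (highest adjusted p = 0.100). It was lost too without the goWAT and scWAT libraries rich in other markers (0.0637) and with condition and replicate number together as a block (0.0901).

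Gdf15, a stress hormone that acts on the brainstem receptor GFRAL, had 0.398, 0.716 and 0.192 CPM in iBAT placebo and 2.75, 2.15, 27.5, 2.79 and 5.24 CPM with corticosterone at 22 °C. The groups did not overlap, and GC RT 3 was far above the others. The Gdf15 difference of 4.17 ± 1.43 did not pass (adjusted p = 0.223). Fgf21, a hormone that liver and stressed fat release, was higher with corticosterone in 5 of 6 comparisons, by 1.84 to 2.11, and lower in goWAT at 22 °C (-1.38). No Fgf21 difference passed, and its levels were 0 to 5.35 CPM in the 3 depots.

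The scWAT groups at 13 °C, which gave 5 of the 15 calls, also differed in markers of other cells. Summed brown adipocyte markers were 1249 to 3779 CPM in placebo and 310 to 883 CPM with corticosterone, and white adipocyte markers 1849 to 4153 and 7185 to 9937 CPM. Epithelium markers were 77.4 to 355 CPM in 3 of the 4 corticosterone libraries. Without the 4 libraries rich in epithelium markers, 1 corticosterone library was left at 13 °C, whose spread the fit takes from the other groups. That fit cannot show whether the calls rest on the libraries left out. The log2 fold changes were then 2.92 for Cbs, 2.22 for Stc2, 1.78 for Cth, 0.71 for Trib3 and -0.88 for Psph. With the replicate number as a block, 2 members were called in place of 5, and Trib3 (adjusted p = 0.0706), Psph (0.0778) and Stc2 (0.126) were not. In scWAT at 22 °C, where Ddit3, Phgdh and Cbs were called, brown adipocyte markers were 875 to 3345 CPM in placebo and 151 to 350 CPM with corticosterone, with no overlap. In goWAT at 22 °C, white adipocyte markers were 4663 to 6909 CPM in placebo and 8173 to 26377 CPM with corticosterone, and macrophage markers 859 to 1232 and 1257 to 2685 CPM. The part of these cells in the results was not tested.

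Cold housing was first compared in placebo, where edgeR called 0 members between 13 °C and 22 °C in any depot. The shares of all genes called were 0.0175% for iBAT, 0.312% for goWAT and 0% for scWAT. At an unadjusted p under 0.05 there were 4, 3 and 8 members in those comparisons, and DESeq2 called none. The share of all genes at that unadjusted threshold was not counted. Chac1 differed by 1.15 ± 0.42 in goWAT and 1.24 ± 0.49 in scWAT (adjusted p = 0.492 and 0.320). In iBAT, Ddit3 was higher at 13 °C by 0.98 ± 0.35 and Atf5 by 0.92 ± 0.44, and Cbs lower by -2.95 ± 1.14, none past the threshold.

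Under corticosterone, cold against 22 °C gave 4 calls in scWAT (11.8% of members, beside 8.18% of all genes, 3.02% higher and 5.17% lower) and 0 in iBAT and goWAT, where 0.00583% and 0.0149% of all genes were called. By unadjusted p under 0.05 these were 8 members in iBAT and 9 in goWAT, and DESeq2 called 3 and 2, again without the share of all genes. In scWAT at 13 °C, Trib3 (1.43, adjusted p = 0.0299), Sesn2 (1.42, adjusted p = 0.0280) and Gpt2 (1.11, adjusted p = 0.0241) rose and Gdf15 fell (-3.11, adjusted p = 0.0255).

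Sesn2 had 18.4, 13.7, 4.98, 7.1 and 11.9 CPM at 22 °C and 11.7, 26.4, 28.9 and 52.8 CPM at 13 °C, and Gpt2 had 260, 119, 94.3, 157 and 169 CPM against 483, 324, 204 and 374 CPM. Trib3 had 11.7, 9.31, 3.12, 8 and 5.7 CPM at 22 °C, against the 9.55 to 31.1 CPM given above for 13 °C. For each of the 3 genes the groups overlapped by the lowest library at 13 °C. Gdf15 had 1.54, 12.2, 19.5, 1.53 and 1.01 CPM at 22 °C and 0.633, 0.362, 1.43 and 0.902 CPM at 13 °C. Its 2 high values were in GC RT 2 and 3, the libraries with 10703 to 15531 CPM of macrophage markers, and the groups overlapped.

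Without those 2 libraries, no member was called between the temperatures in scWAT (adjusted p = 0.579 for Gdf15, 0.130 for Trib3, 0.130 for Sesn2 and 0.156 for Gpt2). Leaving out 1 library ended the calls for Trib3 and Sesn2 (each without GC RT 3, GC CT 3, 4 or 5), Gpt2 (GC RT 3, GC CT 1 or 3) and Gdf15 (GC RT 2 or 3, GC CT 1, 3, 4 or 5), with adjusted p up to 0.101. None of the 4 was called with only the 2 groups fitted or with the replicate number as a block (adjusted p = 0.0518 to 0.124). Without the libraries rich in epithelium markers 1 corticosterone library was left at 13 °C, so no call is read from that fit. The interaction, that is, the corticosterone effect at 13 °C minus that at 22 °C, was called for 0 members in each depot, beside 0.461% of all genes in goWAT and 0% in both other depots. At an unadjusted p under 0.05 there were 2, 8 and 2 members, and DESeq2 called 0, 1 and 0, again without the share of all genes. In goWAT the interaction was -1.61 ± 0.53 for Slc7a5 and -1.17 ± 0.44 for Ddit3, so neither call at 22 °C was shown to differ from 13 °C (adjusted p = 0.195 and 0.255).

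Between genes, levels were compared as mean CPM per kilobase of exon, with 1 scaling over the 55 libraries. In placebo at 22 °C, Eif4ebp1 was the highest member in each depot, at 472 ± 252 (SD, n = 3) in iBAT, 369 ± 101 (SD, n = 4) in goWAT and 343 ± 84.6 (SD, n = 4) in scWAT. In iBAT, Gars (45.9 ± 30.0), Atf4 (41.8 ± 1.77), Slc3a2 (41.7 ± 8.31) and Asns (32.9 ± 10.4) followed, within their spread of each other. In goWAT, Gpt2 (91.7 ± 31.7) came next, above Slc3a2 (46.3 ± 17.8) and Phgdh (41.2 ± 5.47), and in scWAT Nupr1 (33.6 ± 7.21) and Atf5 (32.1 ± 6.20), which did not differ beyond their spread. Slc7a11 was the lowest member in each depot, with 0.0233 ± 0.0107 for iBAT, 0.0476 ± 0.0115 for goWAT and 0.0207 ± 0.0223 for scWAT.

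Depots were compared within the placebo groups, in the fit over 55 libraries, and the most members were called for iBAT against goWAT at 13 °C, where groups held 5 libraries against 3 or 4 at 22 °C. All CPM from here to the end of the depot comparison use its scaling. In that comparison 16 members were lower and 4 higher in iBAT (58.8% of members, beside 36.1% of all genes, 14.9% higher and 21.2% lower), with a median log2 fold change of -0.87 over the members and -0.20 over all genes. Gpt2 had 54.7, 6.31, 9.41, 47.8 and 5.2 CPM in iBAT and 271, 555, 587, 551 and 500 CPM in goWAT, a log2 difference of -4.32 ± 0.58 (adjusted p = 6.48e-08). Phgdh had 19.5, 0.739, 0.784, 8.03 and 2.37 CPM in iBAT and 121, 95.3, 97.8, 99.8 and 152 CPM in goWAT (-4.17 ± 0.71, adjusted p = 8.8e-06). For both genes the depots did not overlap, and Ctrl CT 1 and 4 were the high iBAT libraries.

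Stc2 (-4.37 ± 0.63), Psat1 (-3.55 ± 0.64), Aldh18a1 (-2.89 ± 0.59) and Cth (-2.40 ± 0.41) were lower in iBAT with no overlap. So were Mthfd1l (-2.82 ± 0.78), Slc7a5 (-2.88 ± 0.68), Slc7a1 (-2.08 ± 0.50), Mthfd2 (-1.27 ± 0.40), Shmt2 (-1.12 ± 0.26), Wars (-1.21 ± 0.26) and Aars (-0.93 ± 0.22). Cbs (-2.97 ± 0.78), Chac1 (-2.27 ± 0.56) and Slc6a9 (-2.24 ± 0.71) were lower with overlap. In goWAT Ctrl CT 4, the library with 3164 CPM of epididymis markers, Shmt2 was 37.9 and Wars 147 CPM, above the 11.3 to 17.9 and 46.9 to 68.6 CPM of the other 4.

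The 4 members higher in iBAT than goWAT were the 3 transcription factors Atf4 (0.84 ± 0.21, adjusted p = 0.00131), Ddit3 (1.05 ± 0.29, adjusted p = 0.00335) and Atf5 (1.26 ± 0.39, adjusted p = 0.0092), and Psph (0.85 ± 0.27, adjusted p = 0.0104). Atf4 had 80, 99.4, 66.1, 102 and 107 CPM in iBAT and 54.4, 33.5, 35.7, 60.1 and 69.4 CPM in goWAT, which overlapped at 1 library of each. The count of called members stayed between 17 and 21 under every alternative run, and all 20 calls held when each of 29 libraries was left out in turn. Without the iBAT libraries rich in white adipocyte markers, Ddit3 (adjusted p = 0.0740) was not called and Mthfd2 fell just short of the threshold, and without the goWAT and scWAT libraries rich in other markers Psph (0.0615), Shmt2 (0.119) and Wars (0.0746) were not.

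**Figure D4:**
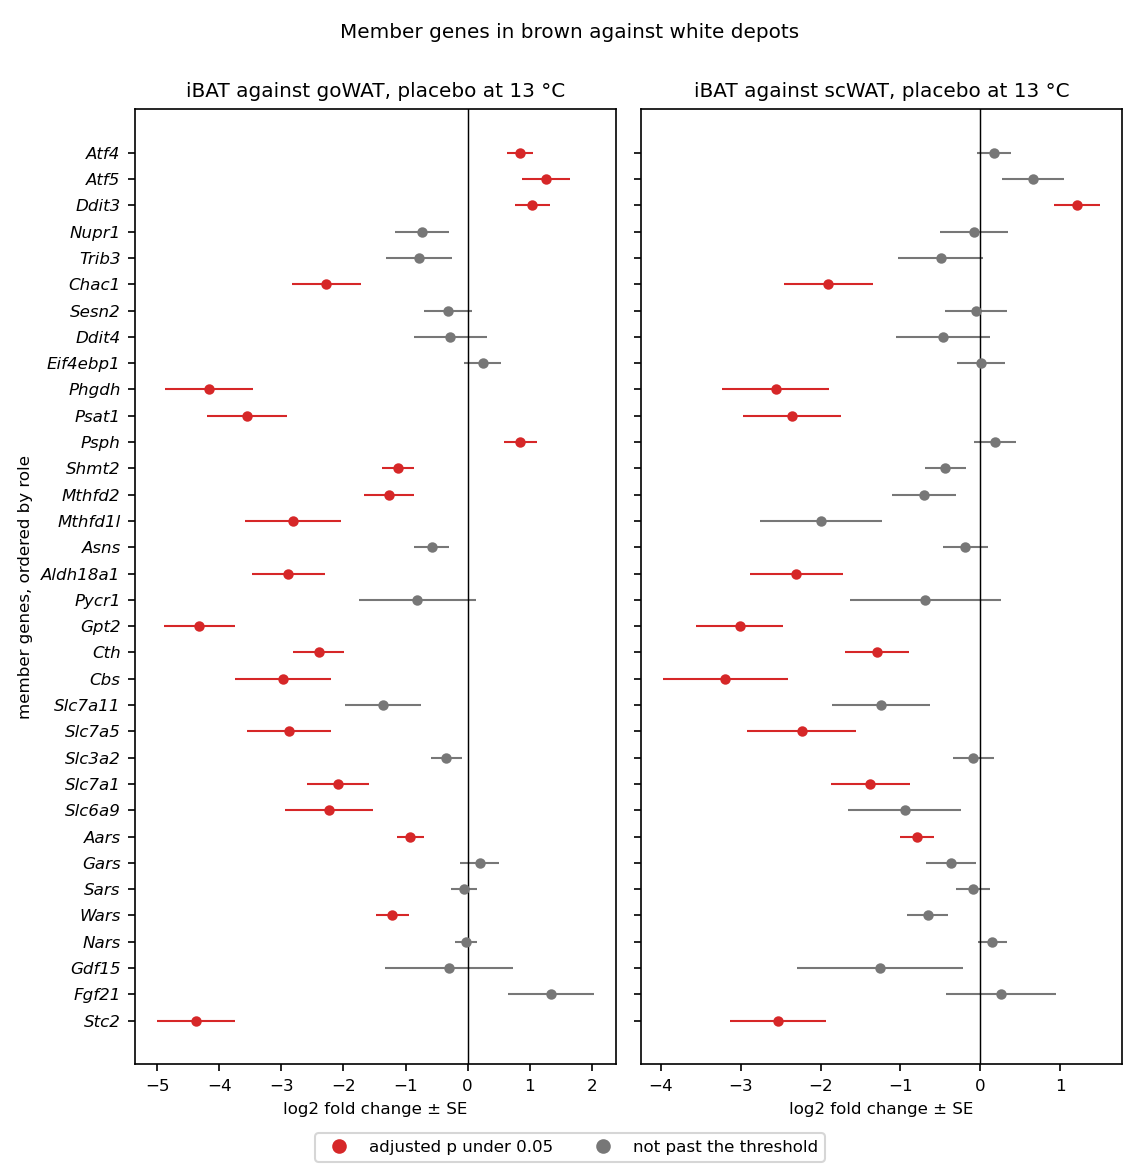
Points and bars give the log2 fold change ± SE of each of the 34 members in iBAT against goWAT (left) and against scWAT (right), in placebo at 13 °C, 5 libraries a group. Red marks adjusted p under 0.05: 16 members are lower and 4 higher in iBAT than goWAT, and 11 are lower and 1 higher than scWAT.

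Against scWAT at 13 °C in placebo, 11 members were lower in iBAT and 1 higher (35.3%, beside 18% of all genes, 7.23% higher and 10.7% lower). Gpt2 (-3.01 ± 0.54), Cbs (-3.19 ± 0.78), Phgdh (-2.56 ± 0.66), Stc2 (-2.53 ± 0.60), Psat1 (-2.35 ± 0.61) and Aldh18a1 (-2.30 ± 0.58) were among the lower ones, and Ddit3 (1.21 ± 0.29) was the higher one. Aars, Chac1, Slc7a5, Cth and Slc7a1 were also lower, with differences from -0.79 to -2.24. Slc7a1 kept its call in 21 of 29 fits that left out 1 library and lost it without iBAT Ctrl CT 1, 2, 3 or 4, without scWAT Ctrl CT 1, 2, 3 or 5 (highest adjusted p = 0.117) or with RLE scaling (0.0603) or no low-count filter (0.0561). The calls were lost for Chac1 without scWAT Ctrl CT 5, for Cth without iBAT Ctrl CT 5 and for Slc7a5 without either (highest adjusted p = 0.164). Slc7a5 was also not called with condition and replicate number together as a block (0.0671). Without the iBAT libraries rich in white adipocyte markers, Chac1 (adjusted p = 0.0508), Slc7a5 (0.0730) and Slc7a1 (0.292) were not called, nor were Cth (0.0711) and Slc7a1 (0.0721) without the goWAT and scWAT libraries rich in other markers. Between the white depots at 13 °C, Stc2 was higher in goWAT (1.84 ± 0.54, adjusted p = 0.0310) and Atf4 lower (-0.67 ± 0.21, adjusted p = 0.0436), which is 5.88% of members beside 5.58% of all genes, 2.34% higher and 3.24% lower. The Atf4 call was lost without goWAT Ctrl CT 1, 2, 3 or 4 or scWAT Ctrl CT 2, 3, 4 or 5 (highest adjusted p = 0.145). The Stc2 call was lost without goWAT Ctrl CT 1, 3 or 4 or scWAT Ctrl CT 1, 2, 4 or 5 (highest adjusted p = 0.0968). Atf4 was also not called without the iBAT libraries rich in white adipocyte markers (0.0605), with RLE scaling (0.0608) or with no low-count filter (0.0644), and neither held without the goWAT and scWAT libraries rich in other markers.

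In placebo at 22 °C, 5 members differed between iBAT and goWAT (14.7%, the same share as the 14.7% of all genes, 8.35% higher and 6.4% lower). Stc2 (-3.64 ± 0.74), Gpt2 (-2.89 ± 0.67) and Phgdh (-2.30 ± 0.81) were lower in iBAT and Atf4 (0.87 ± 0.25) and Psph (1.09 ± 0.32) higher. The Phgdh call was kept in 19 of 26 fits that left out 1 library (lost without iBAT Ctrl RT 1 or 3, GC RT 3 or any goWAT Ctrl RT library), the Atf4 call was lost without iBAT Ctrl RT 3 and the Psph call without iBAT Ctrl RT 2 or goWAT Ctrl RT 4 (highest adjusted p = 0.247). Phgdh was also not called without the goWAT and scWAT libraries rich in other markers (adjusted p = 0.0943) or with no low-count filter (0.0753). Without the iBAT libraries rich in white adipocyte markers, Atf4 (adjusted p = 0.104) and Psph (0.222) were not called. Aars was higher in goWAT than scWAT (0.80 ± 0.24, adjusted p = 0.0437, 2.94% of members beside 4.33% of all genes, 2.03% higher and 2.3% lower), a call lost without any of goWAT Ctrl RT 2, 3 or 4 or scWAT Ctrl RT 1, 2 or 4. The Aars call was also lost without the iBAT libraries rich in white adipocyte markers (adjusted p = 0.0531), without the goWAT and scWAT libraries rich in other markers (0.0596) and with no low-count filter (0.0656). Between iBAT and scWAT no member was called at 22 °C, beside 2.81% of all genes, with 5 members at an unadjusted p under 0.05 and none by DESeq2. Leaving out the iBAT libraries rich in white adipocyte markers leaves 1 iBAT placebo library at 22 °C, Ctrl RT 3. The fit takes its spread from the other groups, so no count of members between iBAT and scWAT is read from it.

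Within the iBAT placebo groups, Gpt2 and Psat1 were high in the libraries with many white adipocyte marker counts. In Ctrl RT 1, 2 and 3 the summed CPM of the 8 markers was 3616, 2899 and 113, Gpt2 was 89.7, 70.7 and 10.6 CPM (scaled within iBAT), and Psat1 64.8, 60.1 and 2.82 CPM. In Ctrl CT 1 to 5 the sums were 1953, 231, 148, 1096 and 135, Gpt2 was 44.8, 5.13, 7.67, 39.9 and 4.32 CPM, and Psat1 29.1, 2.13, 3.6, 15 and 1.53 CPM. The libraries with high marker sums were those with high Gpt2 and Psat1 in both groups. With corticosterone at 13 °C, GC CT 2 had a sum of 2967 and 45.4 CPM of Gpt2, 24.4 of Psat1 and 23.7 of Phgdh, against 6.06 to 13, 0.797 to 3.52 and 0.845 to 5 CPM in the other 4. Phgdh did not follow the markers in GC RT. Its median there was 13.7 CPM (range 3.99 to 20), though GC RT 4 was the only marker-rich library.

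**Figure D5:**
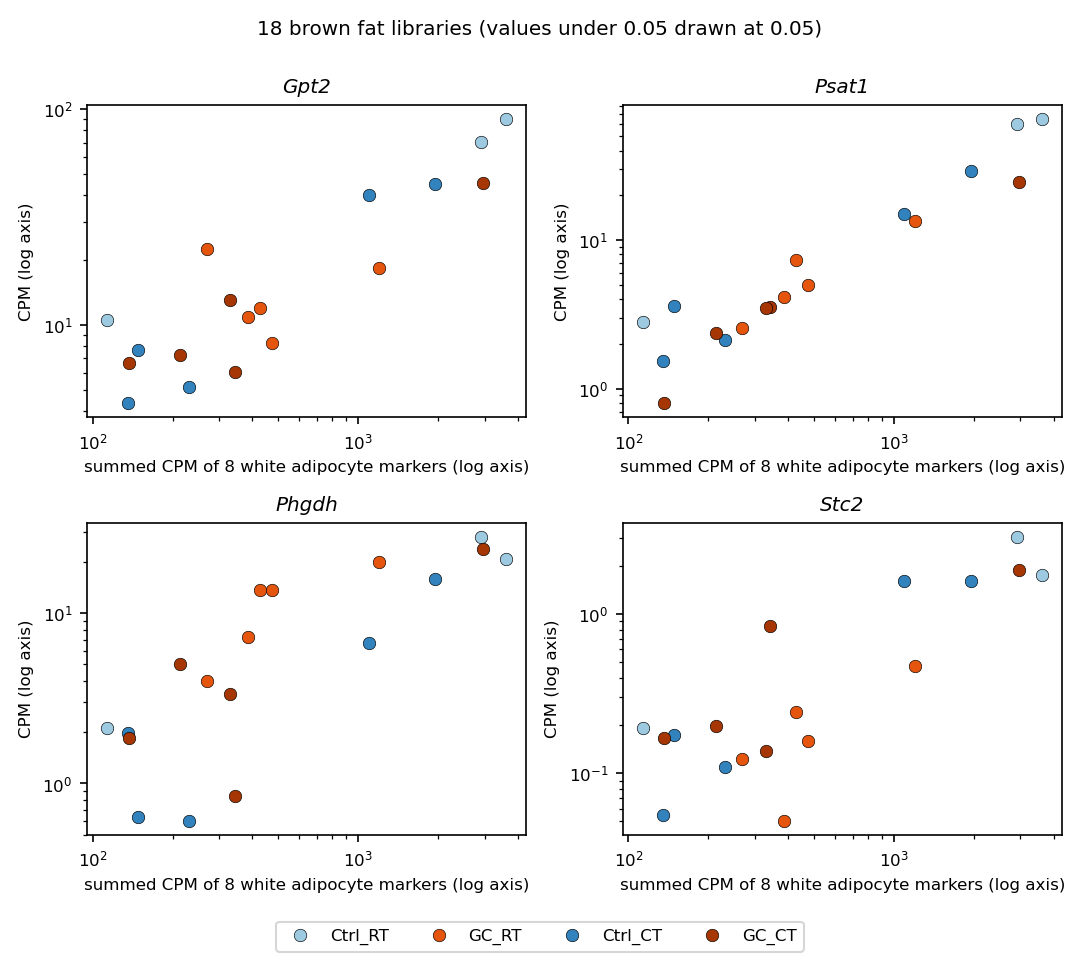
Each point is 1 of the 18 iBAT libraries, with the summed CPM of 8 white adipocyte markers on the horizontal and the CPM of Gpt2, Psat1, Phgdh or Stc2 on the vertical axis (both log axes, values under 0.05 drawn at 0.05). The libraries above 1000 CPM of markers hold the highest Psat1 values, 13.5 to 64.8 CPM, and those below have 0.797 to 7.37 CPM.

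Other genes of the pathway, in 6 lists of kinases, unfolded protein response genes, folate and methionine cycle enzymes, tRNA synthetases and amino acid supply genes, were counted in the same fits. Their counts stand beside the shares of all genes called with corticosterone given above, 5.98% in goWAT and 6.93% in scWAT at 22 °C and 1.45% and 2.59% at 13 °C, so that 1 gene in such a list is near the share at 22 °C. Of the 15 eIF2alpha kinases, phosphatase subunits and partner factors, none was called with corticosterone in any depot. Of the 21 genes of the endoplasmic reticulum response, 2 fell in goWAT at 22 °C, Syvn1 (-0.97) and Herpud1 (-0.95), which clear misfolded proteins. In scWAT 1 fell at 22 °C, the co-chaperone Dnajb9 (-1.30), and 1 rose at 13 °C, Edem1 (0.73). Of the 12 mitochondrial unfolded protein response genes, the protease Lonp1 (-0.66) and the co-chaperone Dnaja3 (-1.01) fell in scWAT at 22 °C.

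Of the other folate, glycine and methionine cycle enzymes, 1 of 23 fell in each goWAT comparison and 1 of 21 in each scWAT comparison. Mat2a, which makes S-adenosylmethionine, fell in goWAT at 22 °C (-1.05 ± 0.23) and 13 °C (-0.85 ± 0.22). Mtrr (0.91), the methionine synthase reductase, rose in goWAT at 22 °C, and the serine carrier Sfxn1 (-0.74) and the folate carrier Slc25a32 (-1.08) fell in scWAT at 22 °C and 13 °C. Of 15 other tRNA synthetases, Iars (0.94) rose in goWAT and Eprs (0.85) in scWAT, both at 22 °C.

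The number called among other amino acid supply genes is not given, so those named here cannot be set against the shares of all genes. Slc43a1, a large neutral amino acid carrier, fell at 22 °C in iBAT (-3.76 ± 0.85), goWAT (-1.54 ± 0.33) and scWAT (-1.13 ± 0.30). Bcat1, a branched-chain aminotransferase, rose in goWAT at 22 °C (2.14 ± 0.56) and scWAT at 13 °C (1.59 ± 0.32). Prodh, the first enzyme of proline breakdown, rose in iBAT at 22 °C (1.61 ± 0.37) and scWAT at 13 °C (1.59 ± 0.41). Aspg, an asparaginase, had means of 0.916 against 31.6 CPM in scWAT at 22 °C (-5.12 ± 0.61, adjusted p = 4.78e-05) and fell at 13 °C too (-3.19 ± 0.58).

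Under corticosterone, cold against 22 °C in scWAT called 8.18% of all genes, 3.02% higher and 5.17% lower. The member calls of this comparison were lost without the libraries rich in macrophage markers, and such losses are not given for the list genes. In the kinase list 1 gene was called higher, Gcn1l1 (1.47), and 2 lower, Atf3 (-2.08) and Eif2ak2 (-1.66), the last the kinase that senses double-stranded RNA. In the same comparison 3 endoplasmic reticulum genes rose, Herpud1 (0.90), Pdia4 (0.84) and Hyou1 (1.43), as did the mitochondrial chaperones Dnaja3 (1.18) and Trap1 (1.16), the synthetase Vars (0.86) and the supply genes Slc1a5 (1.49), Slc43a1 (0.99) and Aspg (2.65).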

How the data were processed

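Gene expression was measured in 55 adipose libraries grouped by depot, treatment and temperature, as the labels give them. The authors deposited raw counts, 1 table for each depot, with 31933 Ensembl genes. The submitters' processing notes name FastQC, GSNAP, featureCounts 1.6.3 and the build mm10. Annotation release, strand setting and treatment of multi-mapping reads are not stated there. IDs were matched to GENCODE M21, and 39 of 31933 had no name; names, positions and exon lengths come from it.

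Counts were analysed with edgeR 4.0.16 in R 4.3.3: filterByExpr (at least 10 counts, 15 in all), TMM scaling and robust quasi-likelihood fits with 1 mean per group. Each depot was fitted alone (17163 genes in iBAT, 20175 in goWAT, 19003 in scWAT), and 1 fit over all depots (22245 genes) compared depots. Biological coefficients of variation were 47.8% to 53.0%, so small differences could not be resolved. Code was tested on simulated data.

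The members and lists were chosen with earlier results of these data known. Values in each library are printed for called members, at most 8 a comparison in the order of adjusted p, and list genes that pass are named, at most 4 a direction. Alternatives were RLE scaling, no low-count filter, a replicate block, DESeq2 1.42.0, only the 2 groups compared, and each library left out. The replicate block was the replicate number within a depot, and condition and number together in the fit over all depots. Leaving out marker-rich libraries was added after seeing the data. The results for 1 listed gene are not reported here.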

Additional observations from a re-analysis of the deposited data

Results flagged for a closer look

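Of 37 combinations of a group and a member called within its depot, 5 held 1 library far from the rest of its group. Chance gives about 1 in 20 for normally distributed values, which CPM need not be, and all 5 were the highest of their group. In iBAT, Ddit4 was 8.17 CPM in GC CT 1 and 0.965 to 2.03 CPM in the other 4 libraries. In goWAT, Mthfd2 was 292 CPM in GC CT 3 and 39.4 to 69.1 CPM in the other 4. In scWAT, Phgdh was 261 CPM in GC RT 1 and 38.6 to 89.4 CPM in the other 4, and in placebo at 22 °C it was 50.9 CPM in Ctrl RT 3 and 29.8 to 32 CPM in the other 3. Cbs was 9.41 CPM in scWAT Ctrl CT 3, one of the libraries rich in epithelium markers, and 0.693 to 3.09 CPM in the other 4.

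The corticosterone effect differed between the 3 depots for Stc2 at 22 °C (edgeR's quasi-likelihood F-test, adjusted p = 0.0241) and for Mthfd2 at 13 °C (adjusted p = 0.0221). The Stc2 difference was lost with the replicate block (0.0901), without the iBAT libraries rich in white adipocyte markers (0.347), without the marker-rich goWAT and scWAT libraries (0.0637) and without iBAT Ctrl RT 1 or 2 or GC RT 1 or 2 (highest adjusted p = 0.100), and that of Mthfd2 without goWAT GC CT 3 (0.102) or without the marker-rich goWAT and scWAT libraries (0.0721).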

How the results depend on the processing

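Counts are members called by edgeR unless another tool is named, and the cause of each shift was not tested. The counts of DESeq2 and of every alternative edgeR run stand without the share of all genes in that run. A shift in them cannot be read as a result about the members. With corticosterone against placebo in iBAT, the count of 0 at 22 °C was 0 to 1 with each library left out and 1 with DESeq2, and that of 1 at 13 °C was 0 to 2, and 0 without the libraries rich in white adipocyte markers or those rich in muscle markers. In goWAT, the count of 4 at 22 °C was 1 to 5 with each library left out and 2 with no low-count filter, without the white-marker-rich or without the epididymis-rich libraries; that of 2 at 13 °C was 2 to 3, 4 with DESeq2 and 1 without the epididymis-rich libraries. In scWAT, the count of 3 at 22 °C was 1 to 4 with each library left out and 9 with DESeq2, and that of 5 at 13 °C was 2 to 5, 2 with the replicate block and 0 without the epithelium-rich libraries, which leaves 1 corticosterone library.

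For cold under corticosterone, DESeq2 called 3 in iBAT and 2 in goWAT, where edgeR called 0. The count of 4 in scWAT was 0 to 10 with each library left out, and 0 with the replicate block, with only the 2 groups, or without the macrophage-rich libraries. DESeq2 called 1 interaction in goWAT.

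Between depots in placebo at 22 °C, the count for iBAT against scWAT was 0 with each library left out, and that of 5 for iBAT against goWAT was 3 to 6. The run without the iBAT libraries rich in white markers rests on 1 iBAT placebo library with a spread taken from other groups, so its count for iBAT against scWAT is not read. For goWAT against scWAT at 22 °C the count of 1 was 0 to 2 with each library left out, 0 with no filter, 2 with the replicate block, 3 with DESeq2, 3 without the white-rich iBAT libraries, with Aars lost, and 0 without the marker-rich goWAT and scWAT libraries. The same pair at 13 °C had 2, against 0 to 2 with each library left out, 1 with RLE scaling, 1 with no filter, 5 without the white-rich iBAT libraries and 0 without the marker-rich goWAT and scWAT libraries. For iBAT at 13 °C, the count of 12 against scWAT was 10 to 13 and that of 20 against goWAT was 20 with each library left out. The test between depots of the corticosterone effect at 22 °C called 1, against 0 to 3 with each library left out, 3 with DESeq2, and 0 with the replicate block, without the white-rich iBAT libraries or without the marker-rich goWAT and scWAT libraries. At 13 °C it called 1, against 0 to 1, 2 with the replicate block, 2 with DESeq2 and 0 without the marker-rich goWAT and scWAT libraries.

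No direction of a called member reversed under an alternative run. The labels do not say that a number marks a shared animal. Deviations from the group means of same-numbered libraries correlated at medians of 0.022 in goWAT, -0.0061 in iBAT and -0.029 in scWAT, and at 0.073 across depots, against -0.029 for different numbers across depots. Over single members and all comparisons together, the call was kept in 1657 cases and lost in 151. With the marker-rich libraries left out, settings added after seeing the data, it was kept in 85 and lost in 43. These totals pool calls between depots, many of which no left-out library ended, with calls within a depot. They are no measure of the corticosterone calls, which differed widely in the fits with a library left out. In scWAT at RT, Ddit3 was called in 18 of 18 such fits and Cbs in 5 of 18. Differences of members with a few counts, such as Slc7a11, rest on few reads.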
